A study of Mus musculus with 9 samples.

Results

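Leukotrienes and prostanoids are lipid mediators made from arachidonic acid, and the expression of the genes that synthesize them was followed in mouse bone marrow neutrophils. The genes were taken by their names in this pathway, with earlier results of these data known, and 6 of the 10 had a row among the 7197 genes of the normalized count table, namely Alox5, Alox5ap, Lta4h, Pla2g4a, Ptgs1 and Tbxas1. Ltc4s, Ptgs2, Ptges and Hpgds had no row and were not analysed here. A missing row is no measurement of absence, since the table holds no gene seen in fewer than 7 of the 9 libraries or with fewer than 8 reads in its best library. All 6 listed genes entered the test, which covered the 6673 genes whose mean over the libraries reached 10 normalized counts.

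The study asked whether neutrophils of mice with increased nutrient signalling differ in themselves from those of normal mice. Rragc encodes RagC, one of the Rag GTPases that recruit the kinase complex mTORC1 to lysosomes when amino acids are plentiful, and the S74N substitution leaves the protein in an active state. Neutrophils were sorted as CD45+, CD11b+ and Ly6G+ cells from the bone marrow of Rragc+/+ controls (5 libraries) and of RragcS74N/+ mice (4 libraries), which carry the substitution in a single endogenous allele in all tissues. Every animal was 2 months old. The labels give no replicate numbers, and those used here follow the order of the sample records within each genotype. Each library was a 3′-end RNA library, and the reads recovered over the listed genes numbered 1214295 to 1973957. Normalized counts are reads divided by the size factor of the library, with no division by transcript length. Levels of different genes were not compared as transcript numbers. The study's text says that the cells came from several young mice of each genotype, and the labels do not tie libraries to animals, so p-values measure the spread between these libraries. In bulk RNA fewer expressing cells and less RNA per cell cannot be told apart.

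Cytosolic phospholipase A2 releases arachidonic acid from membranes. 5-lipoxygenase, helped by its membrane partner FLAP, turns it into leukotriene A4, which LTA4 hydrolase converts to the neutrophil attractant leukotriene B4 and LTC4 synthase to the cysteinyl leukotrienes. The cyclooxygenases turn the same fatty acid into prostaglandin H2, from which separate synthases make prostaglandin E2, prostaglandin D2 and thromboxane A2. Neutrophils are known as a source of leukotriene B4, whereas platelets and mast cells are known for thromboxane and for prostaglandin D2 with leukotriene C4.

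The sorted cells carried neutrophil transcripts. All 3 sorting markers and all 9 mature neutrophil genes were listed, with summed levels of 121817 to 178621 normalized counts for the mature genes in Rragc+/+ and 117104 to 198966 in RragcS74N/+ libraries. None of the 6 primary granule genes, Mpo and Elane included, had a row. Transcripts of other cells were present as well. The 7 listed erythroid genes summed to 1091 to 5609 normalized counts in Rragc+/+ and to 379 to 2158 in RragcS74N/+ libraries, with 5 of the 6 tested lower in RragcS74N/+ at an unadjusted p-value under 0.05 and none after adjustment in limma. The 7 listed eosinophil genes summed to 137 to 467 and 133 to 643. Of the monocyte, platelet, and basophil and mast cell lists, 1 gene each was listed (Csf1r, Itgb3 and Kit). One control library, Rragc+/+ replicate 2, stood apart from the rest, with a mean Spearman correlation with the others of 0.891 against 0.929 to 0.951. This library also had the fewest reads, 1214295, and the most listed genes at 0, 14 against 1 to 6 elsewhere. The part of read depth in its correlation was not tested.

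The promoters of Alox5 and Lta4h are shown because these genes encode consecutive enzymes of leukotriene B4 synthesis and their levels ran in opposite order across the libraries, as given further on. The 250 bases before the transcription start are from RefSeq on GRCm38.p6, at chr6:116461179-116461428 on the minus strand for Alox5 and at chr10:93453146-93453395 on the plus strand for Lta4h. Capitals mark, on either strand, GAGGAA, a purine-rich run of the kind bound by the myeloid factor PU.1, and GGGCGG, the GC box bound by SP1.
Alox5: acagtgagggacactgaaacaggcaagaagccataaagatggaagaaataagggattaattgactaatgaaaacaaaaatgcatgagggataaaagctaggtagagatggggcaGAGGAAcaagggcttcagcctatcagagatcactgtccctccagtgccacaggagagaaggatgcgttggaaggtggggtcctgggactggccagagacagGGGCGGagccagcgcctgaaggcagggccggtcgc
Lta4h: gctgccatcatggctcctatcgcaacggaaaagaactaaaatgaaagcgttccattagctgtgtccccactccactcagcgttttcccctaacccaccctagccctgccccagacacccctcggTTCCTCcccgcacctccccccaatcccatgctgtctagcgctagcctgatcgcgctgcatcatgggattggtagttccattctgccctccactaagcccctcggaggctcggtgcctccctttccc
CACGTG, the E-box within the element bound by TFEB, a factor that mTORC1 restrains, was searched as well, and no matches overlap in the windows shown. The Lta4h match lies on the opposite strand. CACGTG was in none of the windows of the 5 listed members that had one (Alox5ap had no entry), against 6.02% of 32851 windows of the same length. GAGGAA was in windows of 4 of these 5 genes, Alox5, Lta4h, Ptgs1 and Tbxas1, against 23.2% of all windows, and GGGCGG was in that of Alox5 alone, against 32.7%. These matches describe letters in a window and are not binding sites.

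No synthesis gene passed the test for a difference between genotypes. With limma on log2(value + 1) over 6673 genes, 0 of the 6 passed 0.05 after Benjamini-Hochberg adjustment, against 0% of all genes tested, and 0 of the 6 had an unadjusted p-value under 0.05, against 5.81% (388 genes). edgeR called 0 genes and had 460 at an unadjusted p-value under 0.05, and DESeq2 called 0 and had 447. Of the differences 4 were below 0 and 2 above, with a median of -0.04 on the log2 scale against 0.02 over all genes. The genotypes overlapped for each of the 6 genes, whereas they did not overlap for 1.69% of the genes tested.

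**Figure D1:**
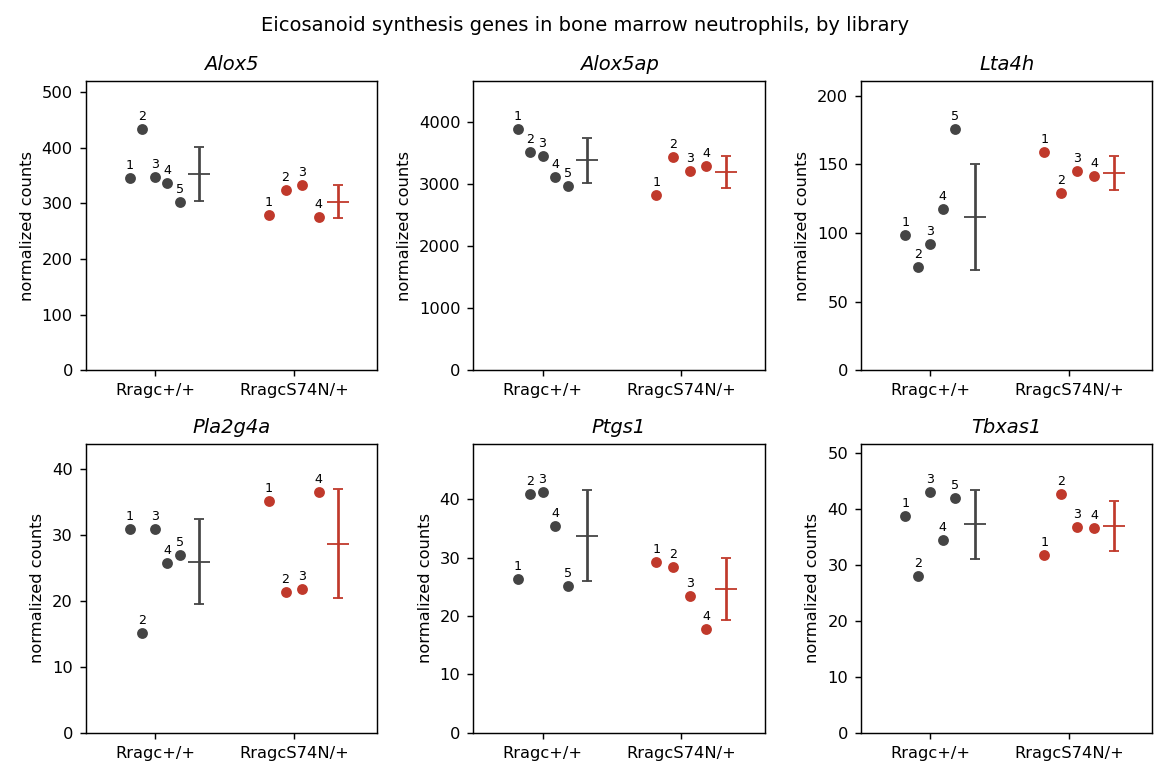
Normalized counts (linear axes from 0) of the 6 listed synthesis genes in each library, numbered by replicate, for 5 Rragc+/+ (grey) and 4 RragcS74N/+ (red) libraries, with the mean and SD beside the points. The genotypes overlap in every panel. Rragc+/+ replicate 5 is the highest Lta4h value, at 175 normalized counts, above all 4 RragcS74N/+ libraries.

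Pla2g4a, which encodes cytosolic phospholipase A2 and opens the pathway, had few reads. It measured 31.0, 15.2, 30.9, 25.7 and 27.1 normalized counts in Rragc+/+ replicates 1 to 5 and 35.1, 21.3, 21.8 and 36.6 in RragcS74N/+ replicates 1 to 4. The RragcS74N/+ libraries fell into a higher and a lower pair, with 4 of the 5 controls between them and Rragc+/+ replicate 2 below all. The means were 26.0 ± 6.46 (SD, n = 5) and 28.7 ± 8.26 (SD, n = 4), a log2 difference of 0.14 with a standard error of 0.27 (limma, adjusted p = 0.876, 95% interval -0.43 to 0.71). Without Rragc+/+ replicate 2 the sign turned, to -0.036. Only 13 to 53 reads per library stood behind these values. Counting alone would give a coefficient of variation of 18.5% in controls, against 24.9% observed.

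Alox5, the gene of 5-lipoxygenase, measured 345, 434, 348, 337 and 302 normalized counts in Rragc+/+ replicates 1 to 5. In RragcS74N/+ replicates 1 to 4 it measured 279, 323, 334 and 276. The highest value was that of Rragc+/+ replicate 2, and 4 of 5 controls lay above all RragcS74N/+ libraries, with replicate 5 inside their range. The means were 353 ± 48.6 (SD, n = 5) and 303 ± 29.7 (SD, n = 4), and the log2 difference of -0.21 had a standard error of 0.16 (limma, adjusted p = 0.724, 95% interval -0.55 to 0.13). Once the dependence of every library on 3′-end GC content was taken out, it was -0.06. In Rragc+/+ replicate 2 the monocyte gene Csf1r was also at its highest, at 339 normalized counts against 71.1 to 189 elsewhere, and the part of monocyte RNA in the Alox5 level was not tested.

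Alox5ap, which encodes FLAP, the protein that presents arachidonic acid to 5-lipoxygenase, had the most reads of the 6 in every library. It measured 3884, 3518, 3456, 3108 and 2969 normalized counts in Rragc+/+ and 2826, 3438, 3217 and 3287 in RragcS74N/+ libraries, in replicate order. The lowest value came from RragcS74N/+ replicate 1 and the other 3 RragcS74N/+ libraries lay within the control range. The means of 3387 ± 361 (SD, n = 5) and 3192 ± 261 (SD, n = 4) differed by -0.08 on the log2 scale, with a standard error of 0.15 (limma, adjusted p = 0.869, 95% interval -0.41 to 0.24). With 2961 to 5898 reads per library, counting would account for a coefficient of variation of 1.64% in controls, and 10.7% was observed.

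Lta4h, the gene of the enzyme that makes leukotriene B4, was the most variable of the 6 in controls. It measured 98.1, 74.8, 91.9, 117 and 175 normalized counts in Rragc+/+ replicates 1 to 5, and 159, 129, 145 and 141 in RragcS74N/+ replicates 1 to 4. All but 1 of the 5 controls lay below every RragcS74N/+ library, and the remaining control, replicate 5, was the highest of all 9. The means were 112 ± 38.9 (SD, n = 5) and 144 ± 12.4 (SD, n = 4), a log2 difference of 0.42 with a standard error of 0.22 (limma, unadjusted p = 0.0804, adjusted p = 0.713, 95% interval -0.06 to 0.90). edgeR and DESeq2 put it at 0.36 and 0.37. The control coefficient of variation was 34.8%, where counting gives 9.04%, and that of RragcS74N/+ was 8.62%, where counting gives 7.73%.

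Of all libraries, Rragc+/+ replicate 5 had the most weight in the Lta4h difference. Without it the difference was 0.60 (limma, unadjusted p = 0.00624, adjusted p = 0.326), and without Rragc+/+ replicate 2 it was 0.29 (limma, adjusted p = 0.994). Replicate 5 also had the highest summed eosinophil level of the controls, 467 normalized counts against 137 to 212, and the highest erythroid sum of all libraries, 5609. RragcS74N/+ replicates 2 and 4, with eosinophil sums of 535 and 643, had the 2 lowest Lta4h values of their genotype. The part of other cells in the Lta4h level was not tested.

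**Figure D2:**
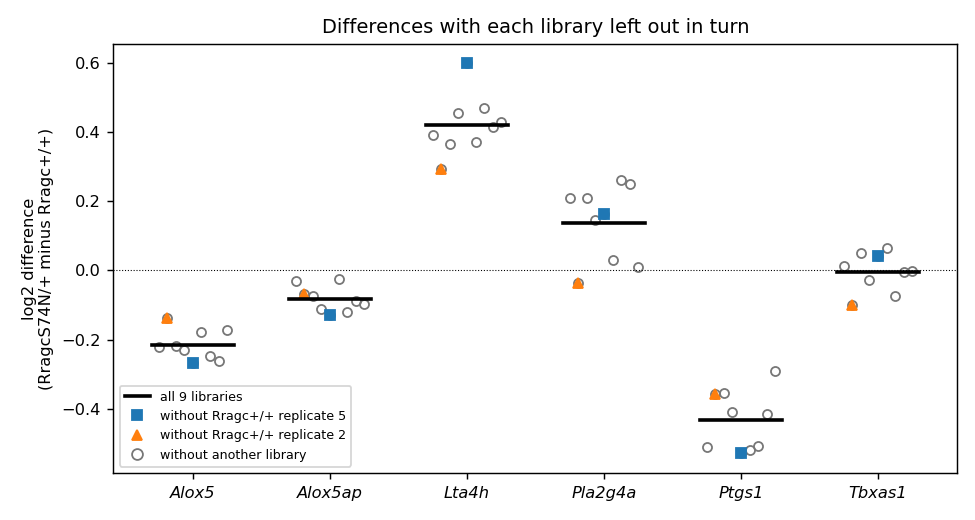
Log2 difference between RragcS74N/+ and Rragc+/+ for each synthesis gene with all 9 libraries (black bars) and with each library left out in turn (points, on the log2(value + 1) scale). The Lta4h difference runs from 0.29 without Rragc+/+ replicate 2 (triangle) to 0.60 without Rragc+/+ replicate 5 (square), and Pla2g4a and Tbxas1 cross 0.

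Ptgs1 encodes cyclooxygenase-1, the constitutive enzyme that makes prostaglandin H2, and was the only cyclooxygenase gene with a row. It measured 26.3, 40.9, 41.2, 35.4 and 25.1 normalized counts in Rragc+/+ and 29.2, 28.5, 23.3 and 17.8 in RragcS74N/+ libraries. Controls 2, 3 and 4 lay above all RragcS74N/+ libraries, whereas controls 1 and 5 lay inside their range. The means were 33.8 ± 7.75 (SD, n = 5) and 24.7 ± 5.30 (SD, n = 4), and the log2 difference of -0.43 had a standard error of 0.24 (limma, unadjusted p = 0.0886, adjusted p = 0.713, 95% interval -0.94 to 0.07). The unadjusted p-value of limma fell just below the threshold with the GC trend removed (0.0499, difference -0.53) and without Rragc+/+ replicate 5 (0.0471, difference -0.53), with adjusted p-values of 0.872 and 0.361. The gene rested on 17 to 44 reads per library.

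Tbxas1, the gene of thromboxane A synthase, had the smallest difference of the 6. It measured 38.9, 28.0, 43.1, 34.6 and 42.1 normalized counts in Rragc+/+ and 31.8, 42.7, 36.9 and 36.6 in RragcS74N/+ libraries, so the RragcS74N/+ values lay wholly within the control range. The means were 37.3 ± 6.17 (SD, n = 5) and 37.0 ± 4.45 (SD, n = 4), a log2 difference of -0.0039 with a standard error of 0.20 (limma, adjusted p = 0.998, 95% interval -0.43 to 0.42). With the 3′ GC trend removed it was 0.12. The control coefficient of variation of 16.5% was close to the 15.6% that counting gives. Cyclooxygenase-1 and thromboxane synthase are both abundant in platelets, of whose 7 marker genes only Itgb3 was listed, at 17.8 to 33.9 normalized counts in controls and 20.9 to 27.9 in RragcS74N/+ libraries, while Pf4 and Ppbp had no row.

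Across libraries the synthesis genes did not rise and fall as one group. Of the 15 pairs among the 6 genes, 7 had a Pearson r above 0 and 8 below 0, on log2(value + 1) over 9 libraries, and all pairs share the libraries and their scaling. Alox5 and Ptgs1 had the highest r, 0.70, and Alox5 and Lta4h the lowest, -0.86 (Spearman rho -0.85). Lta4h also ran against Alox5ap, with r of -0.74. The Alox5 and Lta4h value was -0.79 after removal of the genotype means, -0.81 without the 2 libraries farthest from the Alox5 median, and -0.65 with the 3′ GC trend removed. These correlations are descriptions over 9 libraries of both genotypes.

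**Figure D3:**
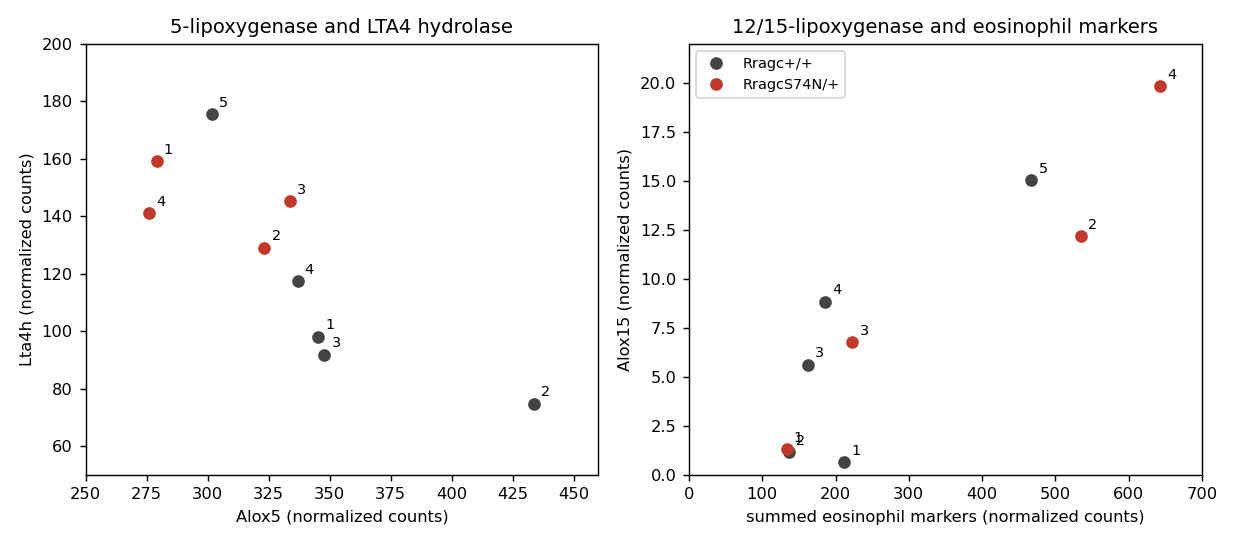
Left, Lta4h against Alox5, and right, Alox15 against the summed eosinophil markers, in normalized counts on linear axes (the left axes do not start at 0), with 1 point per library numbered by replicate (grey Rragc+/+, red RragcS74N/+). The library with the highest Alox5, Rragc+/+ replicate 2 at 434 normalized counts, has the lowest Lta4h, and Alox15 is highest in the 3 libraries with eosinophil sums of 467, 535 and 643.

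The genes whose levels tracked each member most closely over the 9 libraries, among 3474 or 3475 genes averaging 50 normalized counts or more, were found by Pearson r. For Alox5 they were Ucp2 (r = 0.98), Rhog (0.97) and Tmub2 (0.96), and for Alox5ap they were Akt1 (0.95), Samd4b (0.94) and Efhd2 (0.92). For Lta4h they were Arrdc3 and Cpne3 (both 0.95) and Crot (0.92). Ptgs1 was tracked by Comtd1 (0.98), Klf3 (0.97) and Bcl3 (0.96). Pla2g4a had Ctdsp2 (0.88), Glyr1 and Cdc37l1 (both 0.87), and Tbxas1 had Gm49795 (0.89), 2310010J17Rik and Cebpd (both 0.86). Such values are the highest among many and carry no test.

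The 6 wider lists, of 80 genes in all, covered the receptors, the supply of arachidonic acid, the other oxygenases and synthases, and the enzymes and transporters that handle the products. Of these, 34 were listed and 32 tested. In limma, 0 of the 32 were called after adjustment and 2 were under 0.05 without it, a share near the 5.81% of all genes tested. In RragcS74N/+ 13 were lower and 19 higher, against 3109 and 3564 of all genes, with a median log2 difference of 0.05 against 0.02. The 2 genes are named here after their values were seen. Mgll, the gene of monoacylglycerol lipase, measured 178 ± 29.9 (SD, n = 5) in Rragc+/+ and 127 ± 16.4 normalized counts (SD, n = 4) in RragcS74N/+, a log2 difference of -0.47 with a standard error of 0.17 (limma, adjusted p = 0.713). Plaa, a gene named for its relation to phospholipase A2 activation, measured 18.6 ± 3.23 and 26.2 ± 3.47 normalized counts, without overlap (as for 1.69% of genes), a difference of 0.48 with a standard error of 0.22 (limma, adjusted p = 0.713). Its highest control and lowest RragcS74N/+ values were close, at 21.7 and 21.9, on 14 to 43 reads per library. With the 3′ GC trend removed the Mgll and Plaa differences were -0.29 and 0.33, and neither unadjusted p-value was under 0.05. That of Plaa was also above 0.05 with DESeq2 (0.0796), with edgeR (0.05001) and with limma on columns rescaled to the same total (0.0771).

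**Figure D4:**
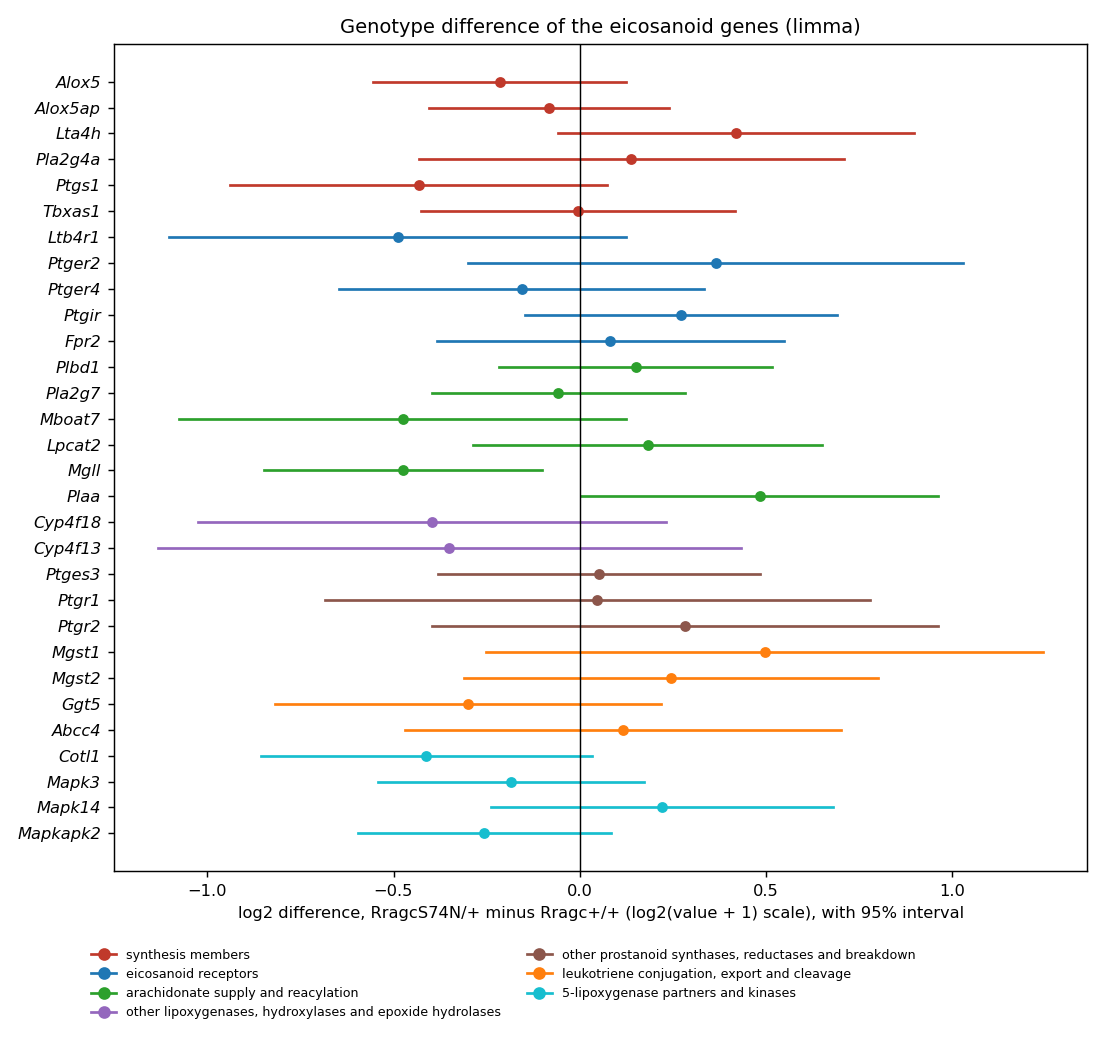
Log2 difference (RragcS74N/+ minus Rragc+/+, log2(value + 1) scale) with 95% limma intervals for the 6 synthesis genes and the named genes of the wider lists that were tested, coloured by list. The intervals span 0 except those of Mgll and Plaa, which were added after their values were seen.

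Of 15 receptor genes, 5 were listed and none passed the test. Ltb4r1, the high-affinity leukotriene B4 receptor that steers neutrophils along gradients, measured 246, 529, 432, 307 and 182 normalized counts in Rragc+/+ and 291, 251, 222 and 158 in RragcS74N/+ libraries. Controls 2, 3 and 4 lay above all RragcS74N/+ libraries and controls 1 and 5 among them, as they did for Ptgs1. Its log2 difference was -0.49 with a standard error of 0.29 (limma, adjusted p = 0.713), and leaving out single libraries gave -0.69 (without Rragc+/+ replicate 5) to -0.30 (without Rragc+/+ replicate 2; -0.32 without RragcS74N/+ replicate 4). With the 3′ GC trend removed it was -0.08 (limma, adjusted p = 0.956). The prostaglandin E2 receptor genes Ptger2 and Ptger4 differed by 0.37 and -0.16, and the prostacyclin receptor gene Ptgir by 0.27 (limma, adjusted p = 0.741, 0.837 and 0.724). Fpr2, which encodes a receptor for formyl peptides and for lipoxin A4, was at 3663 ± 622 (SD, n = 5) and 3982 ± 1308 normalized counts (SD, n = 4) and differed by 0.08 (limma, adjusted p = 0.908).

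None of the other named genes passed the test. In arachidonate supply and reacylation, Plbd1, a phospholipase B-like gene, Pla2g7, the gene of platelet-activating factor acetylhydrolase, and Lpcat2, which makes that factor, differed by 0.15, -0.06 and 0.18. Mboat7, which puts arachidonic acid back into phosphatidylinositol, differed by -0.48, with its highest value, 1012 normalized counts, in Rragc+/+ replicate 2 and 299.9 to 655 elsewhere. The leukotriene B4 hydroxylase gene Cyp4f18 and its relative Cyp4f13 differed by -0.40 and -0.35, and Cyp4f18 too was highest in Rragc+/+ replicate 2, at 666 against 198 to 428 normalized counts. These 2 differences were -0.08 and -0.03 with the 3′ GC trend removed, and that of Cyp4f18 was -0.15 without Rragc+/+ replicate 2. Cotl1, which encodes a chaperone of 5-lipoxygenase, differed by -0.41 with a standard error of 0.21 and was also highest there, at 4084 against 1630 to 2971. Its difference was -0.16 with the GC trend removed. The unadjusted p-value of Cotl1 was 0.0663 in the main limma test. It fell just below 0.05 with DESeq2 (0.0497) and with limma on columns rescaled to the same total (0.0482). The adjusted p-values there were 0.741 and 0.769. Without Rragc+/+ replicate 2 the differences of Cotl1, Mboat7 and Alox5 itself were -0.27, -0.25 and -0.14.

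Among the genes that handle prostanoids and leukotrienes, Ptges3, Ptgr1 and Ptgr2 differed by 0.05, 0.05 and 0.28, and Ptges2 fell below the filter at 4.07 to 18.7 normalized counts. The microsomal glutathione transferase genes Mgst1 and Mgst2, the latter able to make leukotriene C4, differed by 0.50 and 0.25, the exporter gene Abcc4 by 0.12 and Ggt5, the gene of an enzyme that cleaves leukotriene C4, by -0.30. Without RragcS74N/+ replicate 4 those of Mgst1 and Mgst2 were 0.22 and 0.03, and without Rragc+/+ replicate 2 that of Ggt5 was -0.14. Of the kinase genes, Mapkapk2 and Mapk14, whose products act in the p38 pathway that phosphorylates 5-lipoxygenase, differed by -0.26 and 0.22, and Mapk3 by -0.18. With the GC trend removed the Mapkapk2 difference was -0.0035. The smallest adjusted p-value of limma among the named genes was 0.713. The direction of the differences of Ptges3, Abcc4 and Mapk3 turned with the 3′ GC trend removed.

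Alox15, the gene of the lipoxygenase that is prominent in eosinophils, fell below the filter on mean level, and without that filter its log2 difference was 0.70 (limma, adjusted p = 0.787). It measured 0.659, 1.17, 5.62, 8.84 and 15.0 normalized counts in Rragc+/+ replicates 1 to 5 and 1.33, 12.2, 6.78 and 19.9 in RragcS74N/+ replicates 1 to 4, from 1 to 19 reads. It was highest in RragcS74N/+ replicate 4, Rragc+/+ replicate 5 and RragcS74N/+ replicate 2, the libraries with eosinophil sums of 643, 467 and 535 normalized counts, whereas the other 6 had sums of 133 to 223. Of that list, Prg2, Epx, Ear1, Ear2 and Ear6 were each highest in these 3 libraries. Siglecf was not, at 18.8, 21.1 and 31.5 normalized counts in the same order against 25.6 to 34.7 elsewhere. Nor was Ccr3, at 10.45, 15.0 and 14.2 in that order against 5.62 to 10.54 elsewhere, on 6 to 16 reads per library. Mgst1 was also highest in these 3 libraries, at 2632, 1877 and 1668 normalized counts against 554 to 1450 elsewhere. The summed mature neutrophil genes were highest in the same 3 libraries too, at 198966, 178621 and 187382 normalized counts against 117104 to 160336 elsewhere. S100a9 and S100a8, the highest genes of that list, averaged 64038 and 51505 normalized counts. Cxcr2, of the same list, measured 1060, 895 and 1693 in these libraries, in the same order, against 1253 to 1951 elsewhere. The summed secondary granule and immature genes were at 34792, 33462 and 30260 there against 21453 to 30967 elsewhere. The part of eosinophil RNA or of neutrophil maturity in the Alox15 and Mgst1 levels was not tested.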

How the data were processed

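RNA of sorted neutrophils (5 Rragc+/+ and 4 RragcS74N/+ libraries) was made by the authors into oligo-dT primed 3′-end libraries with molecular identifiers. Per the study's methods, reads were aligned to GRCm39 with TopHat2 and counted per gene and strand with HTSeq (version 0.6.1). The deposited values are a signal, read counts that the authors divided by a size factor per library. Each value came out as a whole number of reads (100% of values, tolerance 0.001), for 1214295 to 1973957 reads per library over the listed genes. Collapsing of reads by identifier and the choice of listed genes are not given in the sources used here, so counting error may understate the noise.

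Values were tested as log2(value + 1) with limma (version 3.58.1, R 4.3.3), trended moderation and genotype as the single term, for genes with a mean of at least 10, with Benjamini-Hochberg adjustment over all 6673 genes and a threshold of 0.05. Differences on this scale understate those of scarce genes. edgeR (version 4.0.16) and DESeq2 (version 1.42.0, no adjusted p-value for 8 genes) were run on the recovered reads. Other pseudocounts, filters and scaling were tried too, and each library was left out in turn. Removal of the trend on the GC content of the last 500 bases of transcripts (GENCODE on GRCm38, 6556 genes and 6 of 6 members) was chosen after seeing the data.

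The members and lists were chosen with earlier results of these data known. Named genes were all listed members and receptors, the 4 highest listed genes of each other wider list, and the 3 genes with the highest Pearson r to each member. Levels of the 12 marker lists beside those given with the results were as follows. Summed sorting markers were 4963 to 5838 normalized counts in Rragc+/+ and 4972 to 6159 in RragcS74N/+ libraries, secondary granule genes 25412 to 33462 and 21453 to 34792, and cell cycle genes 249 to 570 and 301 to 476. B cell genes (Ighm and Igkc) were at 90.0 to 146 and 86.2 to 132, and the T and NK cell gene Cd3d at 14.5 to 28.9 and 14.6 to 18.8. Kit was at 3.51 to 12.2 and 4.64 to 16.3. Of the tested erythroid genes 5 of 6, lower in RragcS74N/+, and 1 of the 6 tested eosinophil genes, higher, had an unadjusted p-value under 0.05 in limma, and 0 genes of any marker list passed the adjusted threshold.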

Additional observations from a re-analysis of the deposited data

Results flagged for a closer look

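In 82 sets of values (a gene or marker sum within a genotype), 4 had an extreme library whose gap to its nearest neighbour took up more of the range than Dixon's 95% critical value, where about 1 in 20 sets is flagged by chance. Mapk14 measured 381 normalized counts in RragcS74N/+ replicate 1 against 185 to 206 in the other 3, a gap of 0.889 of the range, and without that library its log2 difference went from 0.22 to -0.03. Ptgr1, the gene of an enzyme that inactivates leukotriene B4 and prostaglandins, measured 54.1 in Rragc+/+ replicate 5 against 18.7 to 26.5 in the other controls, a gap of 0.780. The summed eosinophil markers were 467 in Rragc+/+ replicate 5, a gap of 0.772. The summed sorting markers were 6159 in RragcS74N/+ replicate 4, a gap of 0.882, with Ly6g at 4066 normalized counts there. None of the 6 synthesis genes was flagged.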

How the results depend on the processing

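Under all 17 alternatives 0 members, 0 genes of the wider lists and 0 genes in all passed the adjusted threshold. Alox5, Alox5ap, Lta4h and Ptgs1 kept their direction in every alternative that tested them, which for Ptgs1 leaves out the stricter filter. Pla2g4a, at 0.14, went to -0.036 without Rragc+/+ replicate 2, with a range of -0.036 to 0.26 over the libraries left out. Tbxas1 went to 0.12 with the 3′ GC trend removed and ranged from -0.10 to 0.064 over the libraries left out. In all, 6 values of members and 15 of other named genes changed sign. The 3 others that turned with the GC trend removed were Ptges3 (-0.091), Abcc4 (-0.031) and Mapk3 (0.10). Over the libraries left out, Fpr2 ranged from -0.11 to 0.22, Pla2g7 from -0.13 to 0.0089, Ptges3 from -0.070 to 0.14, Ptgr1 from -0.11 to 0.33, Ptgr2 from -0.0028 to 0.41, Abcc4 from -0.016 to 0.30 and Mapk14 from -0.026 to 0.32.

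The 388 genes with an unadjusted p-value under 0.05 became 191 under the stricter filter (a mean of at least 50), which tests fewer genes and 3 of the members, and 201 to 907 without single libraries, the lowest without Rragc+/+ replicate 2 and the highest without Rragc+/+ replicate 5. Removal of Rragc+/+ replicates 1 and 3 gave 641 and 224, and of RragcS74N/+ replicates 2 and 4 gave 256 and 224. The members among them, 0, became 1 with the GC trend removed (Ptgs1) and 0 to 2 without single libraries, both (Lta4h and Ptgs1) without Rragc+/+ replicate 5. Those of the wider lists, 2, became 1 with a mean of at least 50, 1 with edgeR, 0 with the GC trend removed and 1 to 7 without single libraries. The 7, without Rragc+/+ replicate 5, were Mboat7, Mgll, Ltb4r1, Cotl1, Ggt5, Mgst1 and Cyp4f18. With DESeq2 and with limma on rescaled columns the count stayed at 2, with Cotl1 in the place of Plaa beside Mgll. The median of the wider lists, 0.05, ranged from -0.026 without Rragc+/+ replicate 1 to 0.058. The cause of these changes was not tested.

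No paired analysis was possible, since the labels give no litter, batch or date by which libraries of the genotypes could be paired. At 13 to 59 reads per library, the intervals of Pla2g4a, Ptgs1 and Tbxas1 reach 0.42 or more on the log2 scale in at least 1 direction. Genes with many reads had intervals as wide, since the standard error of Fpr2, at 3515 reads or more, was 0.22 against 0.20 for Tbxas1. The 4 unlisted members are beyond what the table can show. The study's text describes more RragcS74N/+ mice than the 4 libraries analysed here.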
